A study of Ovis aries with 16 samples.

Results

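The genes described here carry a cell through mitosis: the kinase CDK1 and its cyclins, the chromosomal passenger complex with survivin (gene BIRC5), the spindle checkpoint, kinetochore, spindle and cytokinesis proteins, and condensins. The list named 47 such genes by their function, and was chosen with earlier results of these data known. Of these, 33 had a probe set of their own in the platform's gene table, among 9155 genes measured. The other 14 (MKI67, TOP2A, KIF11, TTK, PRC1, CENPE, FOXM1, ANLN, SPC25, SMC2, PTTG1, RACGAP1, DLGAP5 and CDKN3) were not analysed here. No filter on low values was applied, so each of the 33 was tested. Where a gene had several probe sets, which 12 of the 33 did, the one with the highest mean over all 16 arrays stood for it.

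Peripheral lung RNA came from lambs at 3 days of age. In 8 shunt lambs, fetal surgery 9 ± 6 days before term had joined the ascending aorta to the main pulmonary artery with an 8.0 mm graft, 2 mm long, which the labels describe as modelling congenital heart disease (CHD) in which more blood passes through the lung. The 8 control lambs came from ewes with sham surgery, and lambs of both groups were born by spontaneous delivery. The labels give no breed, sex, litter or pairing. They do not state that each array is a separate lamb, which was assumed here, and should some come from one animal the p-values describe technical spread. Sheep RNA was hybridized to bovine probe sets, so a level is not comparable between genes, and each difference below is the mean log2 level of shunt lambs minus that of controls.

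Most of these genes are transcribed in late S phase, G2 and mitosis and are low in resting cells, so in a tissue they mark the cells that are dividing. Cyclins A and B activate CDK1, the passenger complex corrects faulty attachments of chromosomes to the spindle, the checkpoint holds back the anaphase promoting complex until attachment is complete, and motors and bundling proteins build the spindle and the cleavage furrow. The lung of a newborn is still forming alveoli and capillaries, and its cells divide at a rate far above that of the adult. In RNA of whole lung, fewer dividing cells and less of these RNAs per dividing cell cannot be told apart.

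The arrays were alike, except that control replicate 2 had the lowest mean correlation with the others (0.982, against 0.989 to 0.991) and the lowest array weight (0.27, others 0.75 to 1.70). Over all genes, 8 passed the test between groups (limma, Benjamini-Hochberg adjusted p under 0.05), or 0.0874%, with 6 higher and 2 lower in shunt. Array medians lay between 7.14 and 7.19 in control and between 7.11 and 7.14 in shunt lambs, and the median difference over all genes was -0.01.

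Mitotic genes had higher mean levels in shunt lung, the control lambs spread widely, and 0 of 33 passed the test over all genes (adjusted p from 0.243 to 0.921, limma, with 0.0655% of all genes called higher and 0.0218% lower). The difference was above 0 for 31 of 33 (44.9% of all genes), and its median was 0.41 against -0.01 over all genes and -0.02 over the 7142 genes within the range of levels of the 33. At an unadjusted p under 0.05, 19 of 33 were higher in shunt and 0 lower, where 6.63% of all genes were higher and 7.92% lower. An exact two-sided permutation of the lambs, gene by gene, gave 11 at an unadjusted p under 0.05 (6.31% of all genes higher) and 0 after adjustment over all genes. In at least 7 of 8 shunt lambs the level lay above the control mean for 28 of the 33, against 14.4% of all genes. The 33 genes vary together from lamb to lamb, so these are not counts of independent genes. The groups overlapped for each of the 33 (0.153% of all genes did not overlap).

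**Figure D1:**
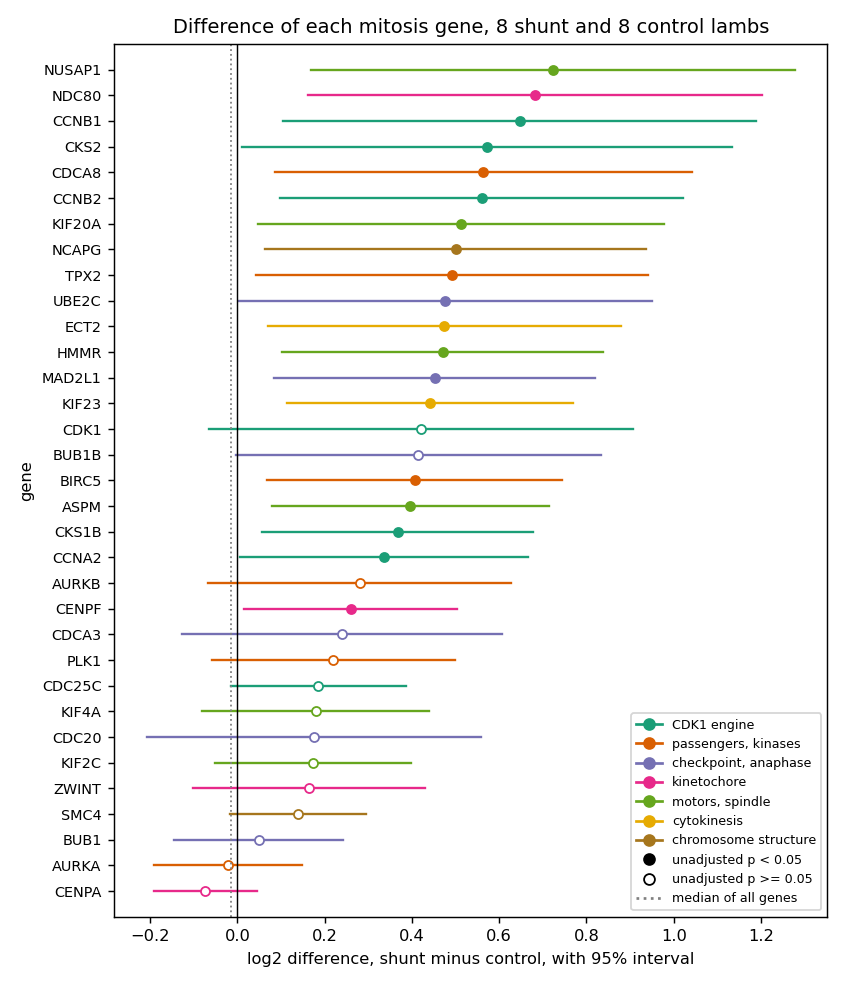
Log2 difference, shunt minus control, of each of the 33 genes with its 95% interval from the limma fit (8 lambs per group); colours mark roles, filled points have an unadjusted p under 0.05, and the dotted line is the median of all genes, -0.01. Of the 33 points, 31 lie above 0 and 19 are filled; CENPA and AURKA lie below 0.

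Survivin, the BIRC5 product, is a passenger subunit that targets the Aurora B kinase to centromeres and also inhibits cell death. BIRC5, like the other members, was chosen with earlier results of these data known, so its values are not independent of that choice. The BIRC5 level ran from 7.42 to 8.53 in control lambs, with a median of 8.11, and from 8.15 to 8.70 in shunt lambs, with a median of 8.42. Control replicates 2, 5, 7 and 8, at 7.66, 7.48, 7.42 and 7.84, lay below every shunt lamb, while control replicates 1, 3, 4 and 6, at 8.39, 8.46, 8.40 and 8.53, lay inside the shunt range. The group means were 8.02 ± 0.47 (SD, n = 8) and 8.43 ± 0.19, a difference of 0.41 ± 0.16 (SE), or 1.33-fold, with an unadjusted p of 0.0211 and an adjusted p of 0.268 (limma), and the exact permutation p was 0.0455. All shunt lambs, 8 of 8, lay above the control mean, as did control replicates 1, 3, 4 and 6.

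BIRC5 works in a complex with CDCA8 (borealin) and the kinase AURKB. CDCA8 ran from 6.89 to 8.58 in control (median 7.87) and from 7.97 to 8.88 in shunt (median 8.29). AURKB ran from 7.61 to 8.71 in control (median 8.19) and from 8.06 to 8.84 in shunt (median 8.45). For both genes the lowest of the 16 lambs was control replicate 5, the highest was shunt replicate 2, and control replicates 2, 5, 7 and 8 lay below every shunt lamb, as they did for BIRC5. CDCA8 differed by 0.56 ± 0.23 and AURKB by 0.28 ± 0.17, with unadjusted p of 0.0235 and 0.107 (limma). A second, dimmer probe set of CDCA8 differed by 0.13 and one of AURKB by 0.15. Among the other mitotic kinases and their partners, TPX2, which activates Aurora A on the spindle, differed by 0.49 ± 0.21 with one probe set and by 0.50 ± 0.19 with another. PLK1, a kinase of mitotic entry and spindle assembly, differed by 0.22 ± 0.13.

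AURKA is the Aurora A kinase of centrosomes and spindle poles. AURKA ran from 7.47 to 8.10 in control (median 7.79) and from 7.57 to 7.89 in shunt (median 7.75), and the shunt lambs lay inside the control range. The difference was -0.02 ± 0.08 with a 95% interval from -0.19 to 0.15, and it was above 0 without control replicate 3 (0.03) or shunt replicate 1 (0.0034), after centring on array medians (0.0013) and with its other probe set (0.0025). The control SD of AURKA was 0.21, against 0.46 for AURKB.

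Of the 7 measured genes of the CDK1 engine, each had a difference above 0, with a median of 0.42, and 5 had an unadjusted p under 0.05. For this role and those below, the shares over all genes were 44.9% above 0 and 6.63% higher at an unadjusted p under 0.05. CDK1, the kinase itself, ran from 7.68 to 9.43 in control (median 8.52) and from 8.43 to 9.67 in shunt (median 8.80). Control replicates 2, 5, 7 and 8 were the lambs below every shunt lamb, and control replicate 6 was above all shunt lambs but replicate 2. The CDK1 means were 8.49 ± 0.63 and 8.92 ± 0.37 (SD, n = 8 each), a difference of 0.42 ± 0.23 (unadjusted p of 0.0848, adjusted p of 0.401, limma). CCNB1, the cyclin B that CDK1 needs to enter mitosis, ran from 7.09 to 9.01 in control (median 8.18) and from 8.09 to 9.57 in shunt (median 8.69). It had the widest spread over lambs of the 33, 2.48 on the log2 scale or 5.58-fold between control replicate 5 and shunt replicate 2, and differed by 0.65 ± 0.26 between groups (unadjusted p of 0.0218). The other cyclins, CCNB2 and CCNA2, differed by 0.56 ± 0.22 and 0.34 ± 0.16. CCNA2 was dim, at percentile 19.8 of the genes by mean level. The small CDK-binding proteins CKS2 and CKS1B differed by 0.57 ± 0.27 and 0.37 ± 0.15, and CKS2 by 0.37 with array weights. CDC25C, a phosphatase that activates CDK1, was also dim (percentile 17.4) and differed by 0.19 ± 0.10.

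The 6 measured genes of motors and spindle proteins each had a difference above 0, with a median of 0.43, and they include the largest difference of the 33. NUSAP1, a protein that bundles spindle microtubules around chromosomes, ran from 8.71 to 10.79 in control (median 9.99) and from 10.24 to 11.03 in shunt (median 10.47). Shunt lambs lay close together, and the 4 control lambs below them were replicates 2, 5, 7 and 8, at 9.27, 8.81, 8.71 and 9.62. The means were 9.80 ± 0.81 and 10.52 ± 0.25 (SD, n = 8 each), a difference of 0.72 ± 0.26, or 1.65-fold (unadjusted p of 0.0135, adjusted p of 0.245, limma). HMMR, which binds hyaluronan and microtubules at spindle poles, ran from 7.06 to 8.50 in control (median 7.82) and from 7.83 to 8.47 in shunt (median 8.24), so its highest lamb was a control, replicate 6. HMMR differed by 0.47 ± 0.18 (unadjusted p of 0.0151), and its other probe sets differed by 0.53, 0.33, 0.26 and 0.23. ASPM, a spindle pole protein, ran from 6.82 to 7.90 in control (median 7.35) and from 7.49 to 8.17 in shunt (median 7.70) and differed by 0.40 ± 0.15 (unadjusted p of 0.0174). Its dimmer probe set differed by 0.05. Among the kinesin motors, KIF20A differed by 0.51 ± 0.22 (0.44 ± 0.14 with another probe set), KIF4A by 0.18 ± 0.12 (0.12 with array weights) and KIF2C by 0.17 ± 0.11 (0.11 without control replicate 7).

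**Figure D2:**
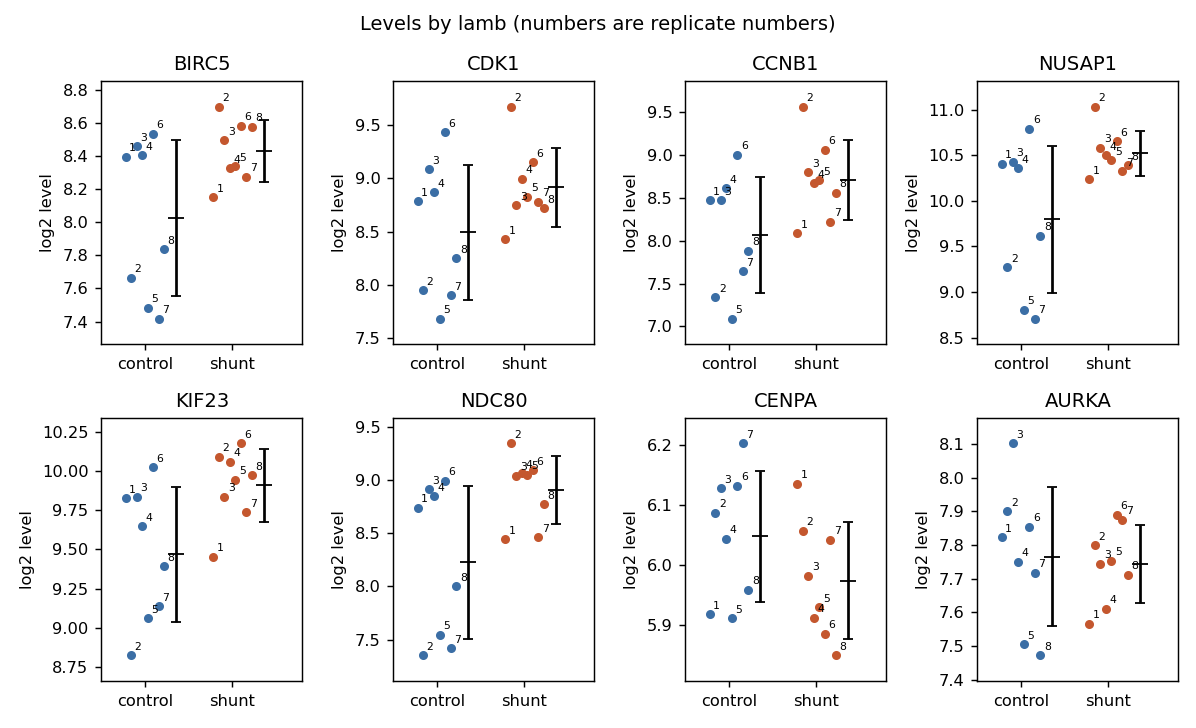
Log2 level of 8 of the genes in each lamb, with group mean and SD (bars) to the right of the points and replicate numbers beside them. For BIRC5, CDK1, CCNB1, NUSAP1, KIF23 and NDC80, control replicates 2, 5, 7 and 8 lie below every shunt lamb and the other control lambs lie among them; 0 control lambs for CENPA and 2 for AURKA lie below every shunt lamb.

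Both measured genes of cytokinesis had a higher mean level in shunt lambs. KIF23, a motor of the central spindle, had the smallest p of the 33. KIF23 ran from 8.82 to 10.03 in control (median 9.52) and from 9.45 to 10.18 in shunt (median 9.96), and 3 shunt lambs lay above the highest control. The difference was 0.44 ± 0.16 (unadjusted p of 0.0112, adjusted p of 0.243, limma, and exact permutation p of 0.0247). ECT2, which activates the small GTPase of the cleavage furrow, differed by 0.47 ± 0.19, and by 0.35 ± 0.15 with another probe set.

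Of 4 measured kinetochore and centromere genes, 3 had a difference above 0, with a median of 0.21. NDC80, the subunit that grips microtubules, ran from 7.35 to 8.99 in control (median 8.37) and from 8.44 to 9.34 in shunt (median 9.04). It had 5 shunt lambs above the highest control, the most of the 33, and differed by 0.68 ± 0.25, or 1.60-fold (unadjusted p of 0.0130, adjusted p of 0.245, limma). CENPF, a kinetochore protein of late G2, differed by 0.26 ± 0.12 and by 0.04 with a dimmer probe set. ZWINT, which links the checkpoint to the kinetochore, differed by 0.16 ± 0.13, and by 0.08 without shunt replicate 2. CENPA, the histone that marks centromeres, had the lowest difference of the 33, -0.07 ± 0.06, with a 95% interval from -0.19 to 0.04. CENPA ran from 5.91 to 6.20 in control (median 6.07) and from 5.85 to 6.14 in shunt (median 5.96), and control replicate 7, low for most of the 33, was its highest lamb. CENPA was dim (percentile 12.6) and ranged over only 0.35 on the log2 scale across the 16 lambs, the least of the 33, and signal over background is unknown there.

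The 6 measured genes of the checkpoint and of anaphase control each had a difference above 0, with a median of 0.33. MAD2L1, the checkpoint protein that holds CDC20, ran from 7.69 to 8.93 in control (median 8.19) and from 8.28 to 9.28 in shunt (median 8.62). The difference of MAD2L1 was 0.45 ± 0.18 (unadjusted p of 0.0186). UBE2C, the ubiquitin-conjugating enzyme of the anaphase promoting complex, differed by 0.48 ± 0.23 (unadjusted p of 0.0484), and BUB1B, another checkpoint protein, by 0.41 ± 0.20 (unadjusted p of 0.0520). CDC20, the activator of that complex, differed by 0.17 ± 0.18, and by 0.10 without control replicate 5 or 7, 0.26 without control replicate 6 and 0.07 with array weights. CDCA3 differed by 0.24 ± 0.17, and by 0.12 without control replicate 5. BUB1, a checkpoint kinase, was the dimmest of the 33 by percentile (8.81) and differed by 0.05 ± 0.09. With 1 array left out, its difference ran from -0.01 (without shunt replicate 2) to 0.08 (without shunt replicate 5). Among genes of chromosome structure, the condensin subunit NCAPG differed by 0.50 ± 0.21. SMC4, another condensin subunit, differed by 0.14 ± 0.07 with the probe set that stands for it and by 0.39 ± 0.17 and 0.20 ± 0.09 with its other probe sets. Without control replicate 5 the probe set that stands for SMC4 differed by 0.09. Over the 12 genes with several probe sets, all 16 further probe sets had a difference above 0, against 39.5% of the 4137 further probe sets of all genes, and 8 of them were higher at an unadjusted p under 0.05, against 4.96%. They measure the same genes in the same lambs and are not independent of the values above.

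The same lambs stood at the ends of the range for most of the genes. Each gene was centred on its mean over 16 lambs, and the centred values were averaged over the 33 genes for each lamb. This mean was lowest in control replicates 5 (-0.75), 7 (-0.61), 2 (-0.57) and 8 (-0.36), which lay below every shunt lamb. Control replicates 1, 4, 3 and 6 were at 0.09, 0.12, 0.22 and 0.42, inside the range of the shunt lambs. The shunt lambs were at -0.14 (replicate 1), 0.03 (7), 0.14 (8), 0.14 (5), 0.17 (4), 0.21 (3), 0.29 (6) and 0.60 (2). For 24 of the 33 genes exactly control replicates 2, 5, 7 and 8 were below every shunt lamb. Control replicate 5 was the lowest of the 16 lambs for 20 genes and control replicate 7 for 8. Shunt replicate 2 was the highest for 24 genes and control replicate 6 for 5.

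**Figure D3:**
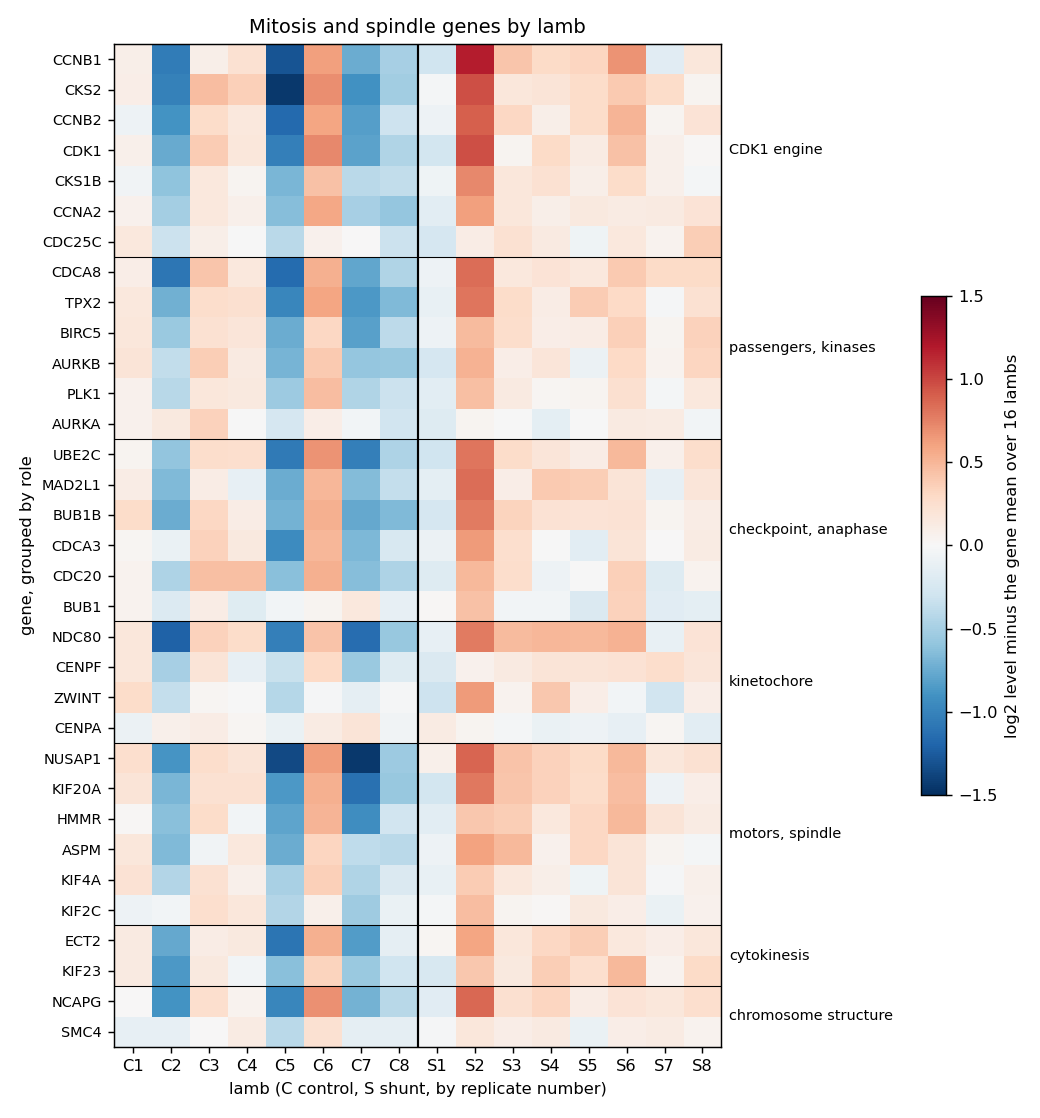
Log2 level of each gene (rows, grouped by role) minus its mean over 16 lambs, by lamb (columns). Columns C2, C5, C7 and C8 are blue for most genes and S2 and C6 red, while the rows of CENPA, BUB1 and AURKA are pale; the mean of the 33 genes is -0.75 in C5 and 0.60 in S2.

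The SD in control lambs was larger than in shunt lambs for 31 of 33 genes (67.3% of all genes), and the median ratio of the SDs was 1.99, against 1.22 over all genes. The genes with a larger shunt SD were BUB1 and ZWINT. The range across the 16 lambs had a median of 1.40 over the 33 genes, against 0.56 over all genes. Once group means were removed, the median correlation over the 528 pairs of these genes across the 16 arrays was 0.87, against 0.01 over pairs of all genes, which share the same arrays and normalization. PLK1 and CDK1 had the highest mean correlation with the other members, 0.85 each. CENPA (0.05), BUB1 (0.31), AURKA (0.49), CDC25C (0.57) and ZWINT (0.57) had the lowest.

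The count of genes at an unadjusted p under 0.05 moved with the lambs at the ends of this order. Leaving out control replicate 2, which stood apart in correlation and array weight, gave 9 of 33 (5.07% of all genes higher). Leaving out control replicate 5 gave 8 (6.53%) and leaving out control replicate 7 gave 11 (6.63%). The count was 10 when shunt replicate 2 was left out (5.76%) and 24 when control replicate 6 was (7.5%). With array weights, which count control replicate 2 least, there were 10 (6.84% of all genes higher). The median difference stayed between 0.32 and 0.48 over the 16 fits with 1 array left out, and was 0.34 without control replicate 2. In each of these 16 fits 0 of 33 passed the adjusted threshold. BIRC5 had its lowest difference, 0.32, without control replicate 7.

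**Figure D4:**
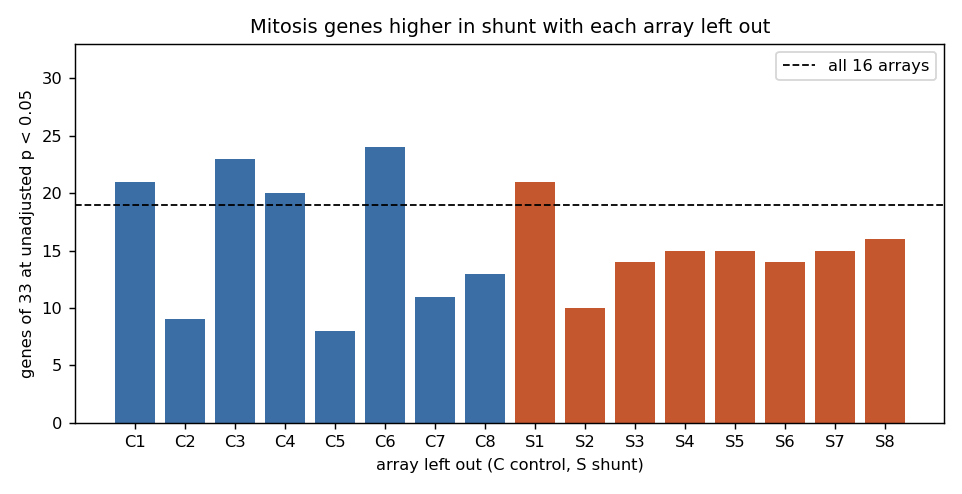
Number of the 33 genes at an unadjusted p under 0.05 in the limma fit with each array left out in turn; the dashed line marks the 19 genes with all 16 arrays. The bars run from 8 (without control replicate 5) to 24 (without control replicate 6).

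Other genes of the cell cycle were read from lists written out beside the 33. These lists too were chosen with earlier results of these data known. Over all genes, 44.9% had a difference above 0. At an unadjusted p under 0.05, 6.63% of all genes were higher in shunt and 7.92% lower. Of 34 further measured mitosis genes, 29 had a difference above 0, with a median of 0.15, 10 (higher) and 1 (lower) had an unadjusted p under 0.05, and 0 passed over all genes (limma). STMN1, a microtubule regulator, differed by 0.35 ± 0.12, the centromere gene CENPN by 0.34 ± 0.12, the spindle gene CKAP2 by 0.55 ± 0.20 and the kinetochore gene SKA1 by 0.48 ± 0.18. The lower one was the condensin gene NCAPG2 (-0.18 ± 0.08, percentile 13.8), named after its value was seen. By lamb, these 34 genes were lowest in control replicates 5 (-0.33), 7 (-0.33), 2 (-0.32) and 8 (-0.24) and highest in shunt replicate 2 (0.31) and control replicate 6 (0.25).

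DNA replication genes had a median difference of 0.05 (18 of 25 above 0, with 3 higher in shunt at an unadjusted p below 0.05, 0 passed, limma). RRM2, a subunit of ribonucleotide reductase, differed by 0.30 ± 0.12, UHRF1, which maintains DNA methylation, by 0.46 ± 0.20, and the polymerase gene POLA1 by 0.18 ± 0.08. By lamb, their mean was lowest in control replicates 2 (-0.30), 7 (-0.15), 5 (-0.14) and 8 (-0.11), the same lambs as for the mitotic genes. It was highest in shunt replicates 2 (0.27) and 4 (0.24) and control replicate 6 (0.23), a narrower spread than that of the mitotic genes. Genes of G1 had a median of 0.0034 (6 of 11 above 0, 2 higher and 1 lower), with the cyclin D gene CCND1 at -0.33 ± 0.11, the CDK inhibitor CDKN2C at 0.40 ± 0.17 and the cyclin E gene CCNE2 at 0.55 ± 0.25. Regulators of G2 and mitotic transcription had a median of -0.0055 (7 of 15 above 0, 3 higher and 0 lower). NFYB, a subunit of the factor that binds CCAAT boxes, differed by 0.21 ± 0.07 and the retinoblastoma gene RB1 by 0.22 ± 0.09. LIN52 differed by 0.19 ± 0.08 and E2F5 by -0.13 ± 0.07. Subunits and regulators of the anaphase promoting complex had a median of -0.0019 (6 of 13 above 0, 2 higher and 1 lower), with the subunits CDC26 at 0.16 ± 0.07 and ANAPC11 at -0.09 ± 0.04 and the inhibitor FBXO5 at 0.37 ± 0.17. None of the genes in these 4 lists passed over all genes (limma). The shares above 0 among the regulators (46.7%) and in the anaphase promoting complex list (46.2%) were near the 44.9% of all genes. By lamb, G1 genes were lowest in control replicates 2 (-0.15), 7 (-0.13) and 5 (-0.09). They were highest in control replicate 6 (0.13) and shunt replicate 2 (0.11). The anaphase promoting complex list was lowest in control replicate 2 (-0.32) and highest in control replicate 6 (0.13), with control replicate 7 at 0.06. Regulators were lowest in control replicate 2 (-0.18) and highest in control replicate 4 (0.07).

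**Figure D5:**
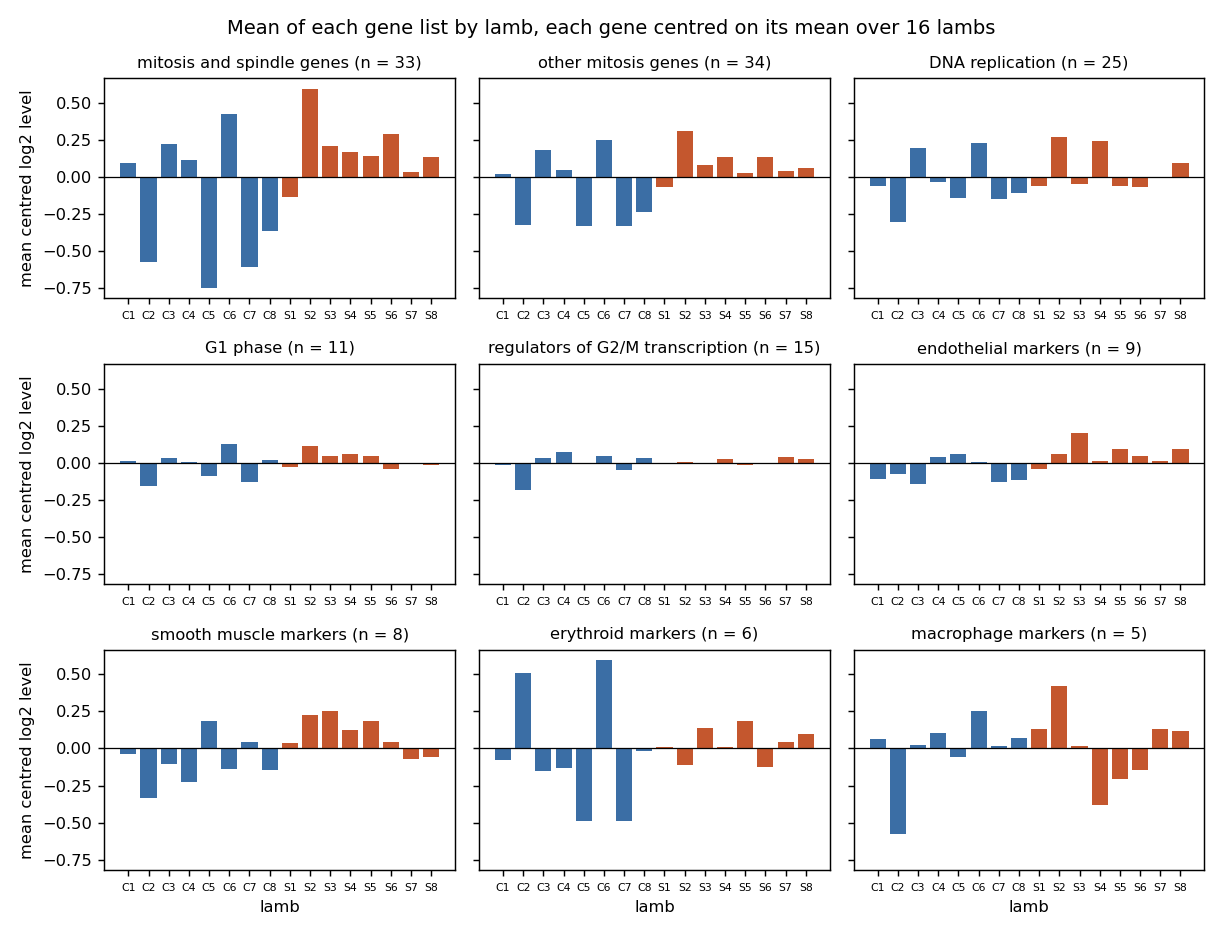
Mean of each gene list by lamb, each gene centred on its mean over 16 lambs (log2; blue control, orange shunt; n is the number of measured genes). The 33 mitosis genes run from -0.75 to 0.60 and the other mitosis genes from -0.33 to 0.31 with the same lambs at the ends. DNA replication genes are also lowest in C2, C5, C7 and C8. Marker lists share some of these end lambs and differ in others. Erythroid markers are lowest in C5 and C7 and highest in C6, but C2 is at 0.51. Macrophage markers are lowest in C2 and highest in S2, but C5 is at -0.06. Smooth muscle markers are lowest in C2 and endothelial markers in C3, with C5 at 0.19 and 0.06.

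Markers of cell types were read in the same lambs, since lung RNA mixes many cells. Of all genes, 44.9% had a difference above 0. At an unadjusted p under 0.05 (limma), 6.63% of all genes were higher in shunt and 7.92% lower. The shares above 0 among macrophage (40%), T cell (37.5%) and B cell (50%) markers were near that of all genes. Smooth muscle markers had a median difference of 0.24 (7 of 8 above 0, and 4 higher at an unadjusted p under 0.05), and their mean level ran from 10.39 to 10.91 in control and from 10.66 to 10.98 in shunt. Among them MYH11, a smooth muscle myosin, differed by 0.33 ± 0.11. Endothelial markers had a median of 0.17 (7 of 9 above 0, 4 higher and 0 lower), with means from 9.11 to 9.31 and from 9.21 to 9.46. The junction gene PECAM1 differed by 0.28 ± 0.05 (adjusted p of 0.0559, limma). Alveolar type 2 markers had a median of -0.19 (0 of 7 above 0, 3 lower), with means from 10.49 to 10.80 and from 10.24 to 10.75, and type 1 markers one of -0.17 (1 of 6, 3 lower), with means from 10.94 to 11.41 and from 10.97 to 11.24. Erythroid markers had a median of -0.05 (2 of 6 above 0, 0 at an unadjusted p under 0.05), with means from 6.17 to 7.26 and from 6.53 to 6.85. Macrophage markers had a median of -0.05 (2 of 5, 1 higher), with means from 8.94 to 9.77 and from 9.13 to 9.94. T cell markers had a median of -0.08 (3 of 8, 1 lower, means 7.44 to 7.59 and 7.30 to 7.52), B cell markers -0.06 (2 of 4, 2 lower, means 5.97 to 6.19 and 5.97 to 6.13) and neutrophil markers -0.17 (0 of 7, 3 lower, means 6.42 to 7.16 and 6.51 to 6.85). Fibroblast markers had a median of 0.04 (6 of 8, 1 higher, means 9.93 to 10.92 and 10.18 to 10.86), and ciliated cell markers -0.31 (0 of 3, 0 at an unadjusted p under 0.05, means 6.10 to 6.80 and 5.84 to 6.99). Of the thymus markers only DNTT was measured, at percentile 3.93 and with a difference of -0.04. No marker of these 12 lists passed over all genes (limma).

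By lamb, erythroid markers were low in control replicates 5 (-0.49) and 7 (-0.49) and high in control replicate 6 (0.60), as the mitotic genes were, but high in control replicate 2 (0.51), where the mitotic genes were low. Macrophage markers were lowest in control replicate 2 (-0.58) and highest in shunt replicate 2 (0.42) and control replicate 6 (0.26), lambs at the same ends for the mitotic genes, but stood at -0.06 in control replicate 5 and 0.01 in control replicate 7. Smooth muscle markers were lowest in control replicate 2 (-0.33) and at 0.22 in shunt replicate 2, while control replicates 5 and 7, low for the mitotic genes, were at 0.19 and 0.05 and control replicate 6 was at -0.14. Endothelial markers were low in control replicates 7 (-0.13) and 8 (-0.12), and also in replicates 3 (-0.14) and 1 (-0.11), and stood at 0.06 in control replicate 5 and 0.01 in control replicate 6. A sign of RNA degradation, the level at the 3' end minus that at the 5' end averaged over 5 control genes, moved largely with the mitotic genes among the control lambs. It was 1.44 in control replicate 5, 1.67 in replicate 8, 1.68 in replicate 2 and 1.89 in replicate 7, which were low for the mitotic genes, and 1.81, 2.04, 2.06 and 2.12 in control replicates 1, 4, 6 and 3, which were not. Among shunt lambs it was 1.82 in replicate 2, the highest for the mitotic genes, and 1.93 in replicate 1, the lowest, in a range from 1.64 to 2.07. The part of the marker levels and of RNA quality in the level of the mitotic genes was not tested.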

How the data were processed

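Values deposited by the authors are on a log2 scale, 1 for every probe set of each array. RMA made them, per the submitters' processing notes, with no version given in the sources used here. That method removes background, gives all arrays the same distribution by quantile normalization and combines a set's probes, so a change shared by most genes would be removed. Total RNA was taken with a column kit and 1 ug was labelled, per the labels' protocols. Scanner files, detection calls and scan dates were not used here, so neither signal over background nor batches could be tested, and the number of arrays limits the precision.

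Of 24128 probe sets, 112 control probe sets were left out. Of the remaining 24016, 13292 had 1 gene symbol in the platform's annotation, 86 several and 10638 none, and the probe set with the highest mean stood for each of 9155 genes. PTTG1 shares its only probe set with another gene and was not used. Groups were compared over all genes with limma 3.58.1 in R 4.3.3 (lmFit, eBayes, no covariate, two-sided, Benjamini-Hochberg, threshold 0.05), and gene by gene with an exact permutation over the 12870 divisions of the lambs. Lists are described by counts and medians, with no list test. Python 3.11.15 with matplotlib 3.10.9 drew the figures. The members and lists were chosen with earlier results of these data known.

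Every measured member was named. The rule for values by group also listed MKI67, FOXM1 and TOP2A, which were not analysed here. Lowest, median and highest values were given for BIRC5, CDK1, CCNB1, the 6 members of smallest p and the 2 of lowest difference, and for CDCA8 and AURKB in addition. From each other list of cell cycle genes up to 4 genes of smallest p could be named. On simulated data for this comparison with 9155 genes, the fit recovered 40 of 67 genes changed by 0.3 (log2). The fit recovered 65 of 67 at 0.6 and 66 of 66 at 1, with 11 false calls. The range over lambs had a median of 1.40 for the members, against 0.56 for all genes (log2). CCNB1, NDC80 and NUSAP1 differed by 0.65, 0.68 and 0.72, with adjusted p of 0.270, 0.245 and 0.245 (limma). Recovery was not tested for the members themselves, so these shares do not show how many of their changes would be found. No sequence of these genes was used here, so the planned count of promoter motifs was not made. The alternatives were the replicate number as a block, leaving out dim genes, centring on array medians, cyclic loess, array weights, a trended and robust prior, 2 other rules for the probe set, the exact permutation, and each array left out in turn.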

Additional observations from a re-analysis of the deposited data

Results flagged for a closer look

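For the highest and the lowest lamb in each group of 8, the distance to the next lamb was divided by that group's whole range (Dixon's ratio). Of 68 sets of values (33 genes and their mean, in both groups), 5 held a lamb past the 95% critical value, where chance gives about 1 in 20, or 3.4. Shunt replicate 2 was the highest shunt lamb for 4 of them: CKS2 at 11.52 (the others 10.52 to 10.94, ratio 0.584), CKS1B at 10.26 (the others 9.48 to 9.83, ratio 0.557), KIF2C at 7.54 (the others 6.97 to 7.22, ratio 0.557) and CCNA2 at 7.18 (the others 6.40 to 6.77, ratio 0.527). Shunt replicate 1 was the lowest shunt lamb for CENPF, at 6.67 (the others 6.94 to 7.15, ratio 0.569). The 33 genes vary together across lambs, so the 4 values of shunt replicate 2 are not independent of each other. No control lamb passed the critical value for any of the 33 genes or their mean.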

How the results depend on the processing

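The number of these genes past the adjusted threshold was 0 of 33 under each of the 9 alternatives and with each of the 16 arrays left out (limma, or the exact permutation), with 19 at an unadjusted p under 0.05 in the fit of the report. That number was 10 with array weights, 11 by exact permutation, and from 8 to 24 with 1 array left out. It was between 17 and 22 in the other alternatives, with the most after centring on array medians (9.32% of all genes higher). The median difference was between 0.30 (array weights) and 0.43 (centred on array medians), and from 0.32 to 0.48 with 1 array left out. The sign of AURKA turned after centring on array medians (0.0013) and with its most variable probe set (0.0025), and with 1 array left out it ran from -0.064 to 0.026. BUB1 ran from -0.010 to 0.084 with 1 array left out. No other gene of the 33 changed sign in any of these fits. Averaging a gene's probe sets gave 0.22 for ASPM, 0.34 for CDCA8, 0.15 for CENPF, 0.11 for KIF2C and 0.24 for SMC4, and cyclic loess gave -0.04 for CENPA. With the replicate number as a block, 17 genes had an unadjusted p under 0.05 (5.9% of all genes higher) and 0 of 33 passed. Deviations of same-numbered lambs correlated over 0.1 in 2 of 8 pairs, and 1 of 16 arrays correlated best with its own number. The labels give no litter or pairing, so this check cannot tell whether same-numbered lambs share more than a number. The filter on dim genes kept 29 of the 33, with 17 at an unadjusted p under 0.05 (7.25% of all genes kept were higher).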
